A study of Homo sapiens with 28 samples.

Results

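Gene expression was compared directly between HepG2 cells exposed to tributyltin chloride (TBTCl) and HepG2 cells exposed to perfluorooctane sulfonate (PFOS). The comparison was chosen by its labels: all 4 TBTCl libraries were set against all 4 PFOS libraries, 8 of the 28 libraries in the series, over every gene that could be tested. HepG2 is an established line from a human liver tumour, and polyadenylated RNA was sequenced. TBTCl was given at 0.1 µM and PFOS at 10 µM, each in DMSO of at most 0.1%, for 24 h after 24 h without serum. The doses differ, so the comparison is between these 2 exposures and not between equal amounts of the 2 substances. The 4 DMSO libraries are given beside them as the shared vehicle and do not enter the contrast. The other 16 libraries (TCDD, BPA, CdCl2 and water, 4 each) served to estimate the spread between replicates. The labels describe 4 independent experiments. They do not say whether an equal replicate number marks the same experiment, and HepG2 is a single tumour line without the other cell types of liver.

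Tributyltin is an organotin once used in ship paints. It is known to bind the retinoid X receptor (RXR) and the receptor PPAR gamma. RXR is the common partner of several nuclear receptors that sense lipids in liver cells: the liver X receptors (LXR) for oxysterols, the PPARs for fatty acids and the farnesoid X receptor (FXR) for bile acids. PFOS is a perfluorinated surfactant that resembles a fatty acid and is known in rodent liver as an activator of PPAR alpha. The series as a whole concerns fatty liver disease and imprinted genes. The direct comparison asks which transcripts separate the TBTCl exposure from the PFOS exposure in this liver cell line. Binding of a receptor by either substance was not measured here.

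Total counts ran from 32.8 M to 40.6 M in the TBTCl libraries and from 28.9 M to 49.7 M in the PFOS libraries. TBTCl replicate 4 stood apart. It lay at 104 on the first principal component of the 8 libraries, which held 44.1% of the variance, while the others lay between -34.1 and 13.9. In it the 179 tested protein-coding genes with under 1000 bases of exon had a median log2 level 1.04 above the DMSO mean, and ribosomal protein genes took 11.9% of its reads, against 5.42% to 7.36% in the other 7 libraries. Values without this library are given beside many of the results it moves, but not beside all of them. The series text records an exchange of the PFOS and TCDD labels after deposit. CYP1A1, which TCDD induces, stood between 1.50 and 16.1 CPM in the PFOS libraries and between 2841 and 6410 CPM in the TCDD libraries. Summed hepatocyte markers reached 51738 to 85591 CPM in TBTCl and 42788 to 69975 CPM in PFOS. The leukocyte, endothelial and stromal markers summed to 60.0 to 69.7 CPM in TBTCl and 59.9 to 72.6 CPM in PFOS, with PTPRC, CD3E and COL1A2 at 0 in all 8 libraries.

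All 47 genes that passed the test were higher in TBTCl, and 0 were lower. They were 0.249% of the 18849 genes tested with edgeR at a Benjamini-Hochberg adjusted p under 0.05. Among the 25 protein-coding genes were the cholesterol exporter ABCG1, the lipogenic transcription factor SREBF1, the mitochondrial fatty acid importer CPT1A, the bile acid genes NR0B2 and SLC51B, and the apolipoproteins APOC1 and APOA2. The other calls were 18 processed pseudogenes, 2 long noncoding RNAs and 2 genes without a type in GENCODE release 29. Without TBTCl replicate 4, 23 of the 47 were still called. In 33 of the 47 genes the fold was at least 2. In 45 of them every TBTCl library was above every PFOS library, where 467 of all tested genes (2.48%) were separated that way and 337 (1.79%) were separated in the opposite direction. At an unadjusted p under 0.05, 1654 genes (8.78%) were higher and 874 (4.64%) lower in TBTCl, while with scaling by library size alone 958 were higher and 1596 lower.

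**Figure D1:**
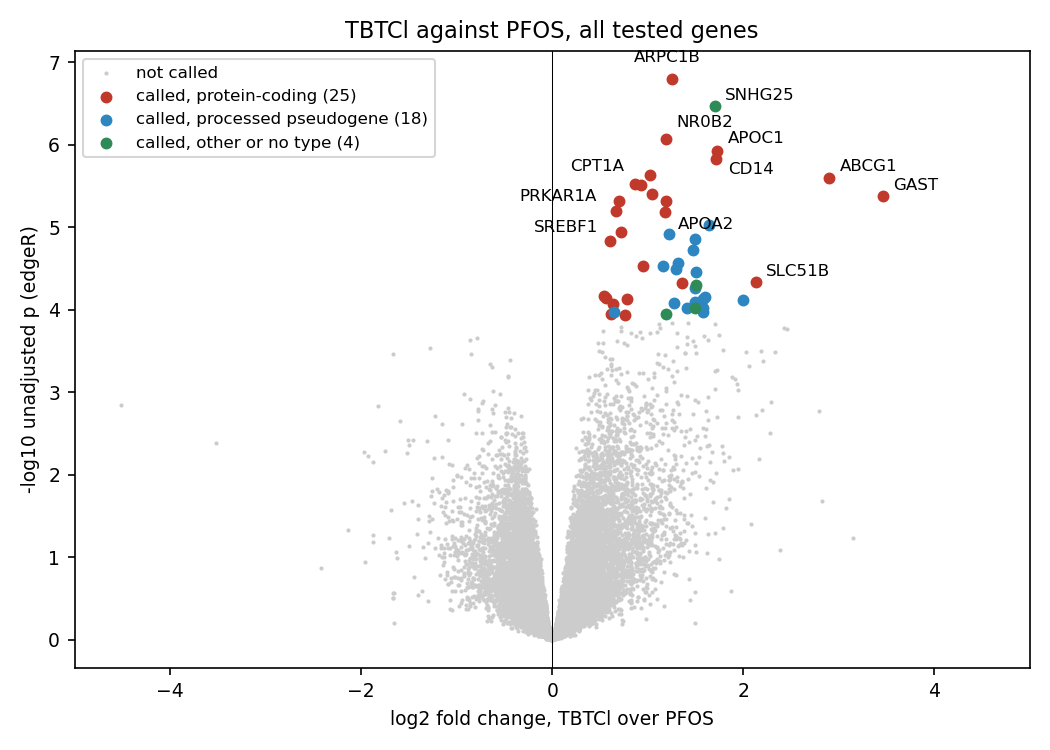
Each point is one of the 18849 tested genes, with the log2 fold change of TBTCl over PFOS on the x axis and the -log10 of the unadjusted edgeR p on the y axis. All 47 called genes, in colour by gene type, lie on the right, led in fold by GAST at 3.46 and ABCG1 at 2.90.

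TBTCl and PFOS libraries of equal replicate number tended to deviate together (correlations 0.248 to 0.521, against -0.514 to 0.291 for unequal numbers). That pairing was read from these same data and is not stated in the labels. When the number entered the model as a block, 119 genes (0.631%) were called, with all 47 genes among them. Of the 119, 111 (0.589%) were higher and 8 (0.0424%) lower in TBTCl. The calls depend on which libraries enter the fit. When the 8 libraries were fitted alone, 0 genes were called by edgeR with or without the block. The filter kept 16597 genes there, and the smallest adjusted p was 0.0677 with the block and 0.325 without it. At an unadjusted p under 0.05, 620 of these genes were higher and 261 lower in the fit without the block. Chance alone gives a fraction of about 0.05 at that threshold, which these counts together hardly exceed. DESeq2 on all 28 libraries called 206 genes (1.09%), 186 (0.987%) higher and 20 (0.106%) lower.

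Genes of cholesterol export and of the LXR pathway included calls for ABCG1, SREBF1 and APOC1. ABCG1 encodes a transporter that moves cholesterol from cells to lipoproteins and is a classical LXR target. It stood at 1.03, 1.39, 0.544 and 0.731 CPM in the 4 TBTCl libraries, against 0.192, 0.105, 0.102 and 0.0766 CPM in the 4 PFOS libraries. Every TBTCl value was above every PFOS value, and DMSO lay with PFOS at 0.157 CPM on average. The fold was 7.45 (log2 fold change 2.90 ± 0.48 SE, edgeR adjusted p = 0.00637), and it did not rest on replicate 4 (2.99 without it, adjusted p = 0.00801). The level was low: the TBTCl libraries held 42, 53, 17 and 21 reads of ABCG1 and the PFOS libraries 10, 5, 3 and 3, where 3 reads is the floor used here for detection.

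SREBF1 encodes the transcription factor that drives fatty acid synthesis genes, and LXR is known to raise it. It stood at 312, 322, 238 and 239 CPM in TBTCl, against 179, 155, 153 and 186 CPM in PFOS. The groups did not overlap, and TBTCl replicates 1 and 2 were the highest. The log2 fold change was 0.72 ± 0.13 SE (adjusted p = 0.0126). The call held in 6 of the 8 edgeR fits that each left out a single library (highest adjusted p 0.0871).

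APOC1, which encodes a small apolipoprotein of triglyceride-rich particles and lies in the APOE cluster on chromosome 19, stood at 81.1, 95.3, 124 and 317 CPM in TBTCl, against 40.0, 41.5, 52.8 and 52.1 CPM in PFOS. The groups were apart in all libraries, with TBTCl replicate 4 far above the other 3. The log2 fold change was 1.73 ± 0.28 SE (adjusted p = 0.00560) and 1.10 without that library (adjusted p = 0.00378). Its pseudogene APOC1P1 was also called, at 1.24 ± 0.758 CPM in TBTCl and 0.432 ± 0.0523 CPM in PFOS (SD, n = 4 each). TBTCl replicate 4 had 2.37 CPM and the other TBTCl libraries 0.800 to 0.970 CPM, and the call was lost without it (edgeR log2 fold change 1.50 with adjusted p = 0.0432, against 0.99 with adjusted p = 0.346). Reads of the 2 near-identical copies may have been divided between them in counting, so the APOC1P1 value is uncertain.

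These 3 protein-coding genes were the calls among 17 tested LXR targets (17.6%, against 0.249% of all genes). The lists were chosen with earlier results of these data known, so this share and those of the lists below are a description only. The median log2 fold change of the list was 0.36, beside 0.01 over all tested genes, and 14 of the 17 were positive. The block added 2 members of the same cluster. APOE, which packages cholesterol for uptake, stood at 3740 ± 1505 CPM in TBTCl and 2227 ± 169 CPM in PFOS (adjusted p = 0.0636, and 0.0424 with the block). TBTCl replicate 4 had 5989 CPM of APOE and the other TBTCl libraries 2857 to 3165 CPM, and the log2 fold change was 0.75 with it and 0.42 without it (adjusted p = 0.380). APOC2, the cofactor of lipoprotein lipase, stood at 2.32 ± 0.157 CPM in TBTCl and 1.26 ± 0.149 CPM in PFOS (adjusted p = 0.0607, 0.0369 with the block and 0.263 without TBTCl replicate 4).

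Not all LXR targets were apart. ABCA1, which loads cholesterol onto lipid-poor apolipoproteins and is usually named with ABCG1, stood at 171, 162, 123 and 41.6 CPM in TBTCl, against 136, 183, 120 and 105 CPM in PFOS. The groups overlapped, and TBTCl replicate 4 was the lowest of all (log2 fold change -0.13 ± 0.28 SE, adjusted p = 0.866, and 0.16 without that library). The sterol exporters ABCG5 and ABCG8 had log2 fold changes of 0.19 (adjusted p = 0.621) and 0.36 (adjusted p = 0.421). MYLIP, which marks the LDL receptor for degradation, pointed the other way at -0.42 (adjusted p = 0.235). LPCAT3, a phospholipid remodelling enzyme, stood at 151 ± 35.2 CPM in TBTCl and 107 ± 8.66 CPM in PFOS and passed the test without TBTCl replicate 4 (adjusted p = 0.0270) but not with it (adjusted p = 0.0928).

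The bile acid genes called were a repressor and an exporter. NR0B2 encodes SHP, a nuclear receptor without a DNA-binding domain that FXR induces and that represses bile acid synthesis. It stood at 183, 202, 189 and 274 CPM in TBTCl, against 82.8, 111, 97.5 and 80.6 CPM in PFOS. All TBTCl libraries were above all PFOS libraries, and the call held in each of the 8 fits that left out one library (log2 fold change 1.19 ± 0.19 SE, adjusted p = 0.00540).

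SLC51B encodes the beta subunit of the bile acid exporter OST, another FXR target. It stood at 21.8, 14.1, 8.61 and 46.0 CPM in TBTCl, against 7.97, 2.91, 2.55 and 7.10 CPM in PFOS. The lowest TBTCl library was only slightly above the highest PFOS library, and in both groups replicates 1 and 4 were the higher ones. The log2 fold change was 2.13 ± 0.44 SE (adjusted p = 0.0313), and 1.52 without TBTCl replicate 4, where the call was lost (adjusted p = 0.271). With the block the adjusted p was 8.69e-04. Both genes together were 2 of 11 tested bile acid genes (18.2%, against 0.249% of all genes), and 1 of 11 without that library. The median of the list was 0.11. CYP7A1, the rate-limiting enzyme of bile acid synthesis that SHP represses, stood at 1.59, 3.07, 2.24 and 0.696 CPM in TBTCl, against 2.36, 5.46, 4.72 and 0.919 CPM in PFOS. Its groups overlapped, with the lower value in TBTCl for each of the 4 replicate numbers (adjusted p = 0.590, and 0.332 with the block).

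The promoter of SLC51B is shown because receptors that pair with RXR bind repeats of a 6-base half-site, and because this gene had one of the highest folds. RefSeq promoters (build GRCh38.p14, 250 bases before to 50 after the start of a gene) were at hand for 20 of the 25 protein-coding calls. No promoter was at hand for ABCG1, NR0B2, MPV17L, ARPC1B and PRAP1. In the SLC51B promoter, chr15:65045137-65045436 on the plus strand, a single half-site AGGTCA, in capitals, begins 54 bases before the start.
SLC51B: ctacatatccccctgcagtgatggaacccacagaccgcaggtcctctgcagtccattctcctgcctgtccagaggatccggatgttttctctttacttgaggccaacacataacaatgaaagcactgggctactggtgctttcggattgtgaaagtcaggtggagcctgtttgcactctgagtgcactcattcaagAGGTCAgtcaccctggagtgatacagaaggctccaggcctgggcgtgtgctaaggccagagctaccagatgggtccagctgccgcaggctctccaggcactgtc
On either strand this half-site was present in 3 of the 28 promoters of called genes (10.7%), those of SLC51B, GAST and RILP, and in 13.8% of all 35116 promoters. The direct repeats AGGTCANAGGTCA and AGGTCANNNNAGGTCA, which contain the half-site, were in 0 of the 28 and in 0.0228% and 0.0199% of all promoters. Inverted repeats, other spacings and inexact matches were not searched, so nothing follows about them.

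In fatty acid metabolism the calls were an importer of fatty acids into mitochondria and an activator of their synthesis. CPT1A encodes carnitine palmitoyltransferase, the gate of mitochondrial fatty acid oxidation and a PPAR alpha target. It stood at 75.9, 79.0, 91.5 and 98.6 CPM in TBTCl, against 39.4, 56.3, 34.3 and 40.6 CPM in PFOS. No values overlapped, and the DMSO libraries were lower still at 27.8 to 30.7 CPM. The log2 fold change of TBTCl over PFOS was 1.02 ± 0.17 SE (adjusted p = 0.00637), and the call held in all 8 fits that left out one library. Against the shared DMSO libraries CPT1A had 1.57 in TBTCl (adjusted p = 2.29e-05) and 0.55 in PFOS (adjusted p = 0.234).

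MID1IP1, also known as the Spot 14 relative MIG12, helps acetyl-CoA carboxylase to polymerise into its active form. It stood at 155, 170, 165 and 143 CPM in TBTCl, against 90.7, 105, 115 and 108 CPM in PFOS. The values were tight and apart (log2 fold change 0.60 ± 0.11 SE, adjusted p = 0.0138). The call held in 6 of the 8 edgeR fits that each left out a single library (highest adjusted p 0.0948). Its promoter is shown because SREBF1, whose product binds sterol regulatory elements, was called in the same direction. The promoter, chrX:38801209-38801508 on the plus strand, holds one match to the element TCACNCCAC, on the minus strand, in capitals, beginning 40 bases before the start.
MID1IP1: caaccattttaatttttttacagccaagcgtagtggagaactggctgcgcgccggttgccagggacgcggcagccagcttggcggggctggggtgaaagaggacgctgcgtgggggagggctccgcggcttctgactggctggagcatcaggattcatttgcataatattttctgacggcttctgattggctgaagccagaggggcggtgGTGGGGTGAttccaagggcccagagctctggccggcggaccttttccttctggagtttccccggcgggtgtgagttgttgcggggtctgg
The element was in 1 of the 28 promoters of called genes (3.57%) and in 1.13% of all promoters, both strands counted. Matches of letters do not show that a factor binds.

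Other fatty acid genes were not apart by the test. Of 18 tested genes of fatty acid and triglyceride synthesis SREBF1 was the only call (5.56%, against 0.249% of all genes), with a list median of 0.17. FASN, the fatty acid synthase, stood at 4739, 4019, 3104 and 1781 CPM in TBTCl, against 3073, 2358, 1844 and 2808 CPM in PFOS, with the TBTCl value higher for replicates 1 to 3 and lower for replicate 4 (adjusted p = 0.417). SCD, which makes monounsaturated fatty acids, averaged 4300 ± 239 CPM in TBTCl and 3427 ± 550 CPM in PFOS (adjusted p = 0.415). Of 28 tested PPAR targets and oxidation genes CPT1A was the only call (3.57%, against 0.249% of all genes), with a median of 0.12. The block added FABP1, the liver fatty acid binding protein, at 1515, 1987, 4384 and 6108 CPM in TBTCl, against 694, 1485, 2152 and 1696 CPM in PFOS (adjusted p = 0.247, and 0.0316 with the block; log2 fold change 1.22, and 0.80 without TBTCl replicate 4). The groups of FABP1 overlapped, but TBTCl was higher for each of the 4 replicate numbers. ACSL1, which activates long-chain fatty acids, passed without TBTCl replicate 4 (log2 fold change 0.80, adjusted p = 0.0270) and not with it (0.58, adjusted p = 0.223). The lipid droplet coat PLIN2 (adjusted p = 0.381) and the lipase inhibitor ANGPTL4 (adjusted p = 0.378) overlapped between the groups.

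**Figure D2:**
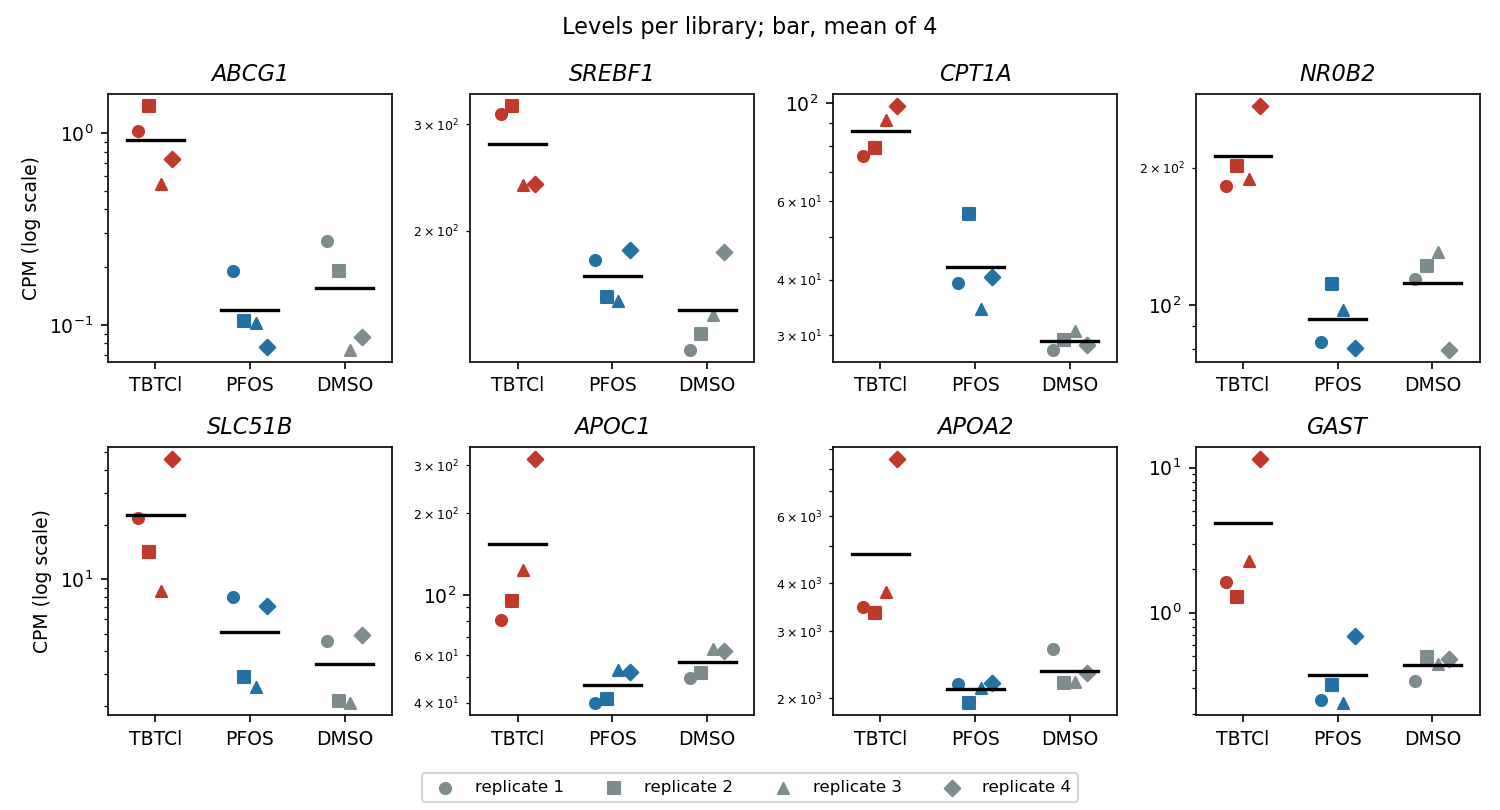
Levels in CPM on a log scale for 8 called genes in TBTCl, PFOS and DMSO, one point per library with the replicate number as its shape and a bar at the mean of 4. In each panel the 4 TBTCl points lie above the 4 PFOS points, while TBTCl replicate 4 is the highest by far for APOC1, APOA2 and GAST, as in APOA2 with 8485 CPM against 3355 to 3806 CPM in replicates 1 to 3.

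The call among the hepatocyte markers was a secreted protein. APOA2, the second protein of high density lipoprotein, stood at 3473, 3355, 3806 and 8485 CPM in TBTCl, against 2177, 1943, 2126 and 2194 CPM in PFOS. The groups were well apart, and TBTCl replicate 4 was far above the rest (log2 fold change 1.18 ± 0.21 SE, adjusted p = 0.00830, and 0.74 with adjusted p = 0.0123 without it). It was the only call among 19 tested hepatocyte markers (5.26%, against 0.249% of all genes), whose median was 0.29, and 0.14 without replicate 4. With the block FGB and MBL2, which the liver also secretes, passed the test. FGB, the beta chain of fibrinogen, stood at 1095 ± 181 CPM in TBTCl and 541 ± 11.6 CPM in PFOS (adjusted p = 0.0578, 0.0311 with the block and 0.280 without TBTCl replicate 4). MBL2, the mannose-binding lectin, stood at 21.5 ± 5.39 CPM in TBTCl and 8.85 ± 3.04 CPM in PFOS (adjusted p = 0.167, 0.0227 with the block and 0.640 without TBTCl replicate 4).

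Outside lipid metabolism the highest fold belonged to GAST, which encodes the hormone gastrin. It stood at 1.64, 1.28, 2.27 and 11.5 CPM in TBTCl, against 0.250, 0.316, 0.238 and 0.689 CPM in PFOS, from 49 to 329 reads in the TBTCl libraries and 7 to 27 in the PFOS libraries. Replicate 4 was the highest library in both groups. The log2 fold change was 3.46 ± 0.60 SE (adjusted p = 0.00702) and 2.20 without TBTCl replicate 4 (adjusted p = 0.0404). Its promoter, chr17:41712081-41712380 on the plus strand, is shown as the other promoter of a high-fold gene with the half-site, in capitals, which here begins 203 bases before the start.
GAST: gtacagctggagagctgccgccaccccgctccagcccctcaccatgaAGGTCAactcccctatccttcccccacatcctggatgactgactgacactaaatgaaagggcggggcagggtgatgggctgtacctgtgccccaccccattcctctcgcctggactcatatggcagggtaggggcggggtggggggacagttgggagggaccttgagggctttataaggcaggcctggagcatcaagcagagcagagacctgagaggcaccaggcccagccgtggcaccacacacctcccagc

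Surface receptors were also among the calls. CD14, the co-receptor for bacterial lipopolysaccharide, which hepatocytes also make, stood at 5.62, 3.83, 4.32 and 5.81 CPM in TBTCl, against 2.19, 1.16, 1.19 and 1.38 CPM in PFOS (log2 fold change 1.71 ± 0.28 SE, adjusted p = 0.00560). It was the only call among 8 tested markers of leukocytes, endothelium and stroma (12.5%, against 0.249% of all genes). The sum of that list did not separate the groups. ENG, a co-receptor for TGF beta, stood at 5.57, 5.85, 5.06 and 4.84 CPM in TBTCl, against 2.15, 3.12, 1.87 and 2.20 CPM in PFOS (log2 fold change 1.19 ± 0.21 SE, adjusted p = 0.00702). Both genes were low in level and clearly apart in all 8 libraries.

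The smallest p belonged to ARPC1B, a subunit of the Arp2/3 complex that nucleates actin. It stood at 4.22, 2.99, 3.74 and 4.18 CPM in TBTCl, against 1.94, 1.26, 1.39 and 1.74 CPM in PFOS (log2 fold change 1.25 ± 0.18 SE, adjusted p = 0.00299). TP53INP2, which takes part in autophagy, stood at 139, 172, 143 and 88.4 CPM in TBTCl, against 53.5, 82.5, 63.6 and 63.3 CPM in PFOS. For TP53INP2 replicate 4 was the lowest TBTCl library, and the log2 fold change was 1.05 with it and 1.20 without it (adjusted p = 0.00702 and 0.00286). PPIB, a protein-folding isomerase of the endoplasmic reticulum, stood at 849, 931, 865 and 1656 CPM in TBTCl, against 530, 586, 618 and 623 CPM in PFOS (log2 fold change 0.87 ± 0.15 SE, adjusted p = 0.00637, and 0.58 with adjusted p = 0.00378 without replicate 4).

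The remaining protein-coding calls were spread over several functions. PRKAR1A, the regulatory subunit of protein kinase A, averaged 268 ± 36.1 CPM in TBTCl and 165 ± 21.2 CPM in PFOS. COQ10A, a coenzyme Q binding protein of mitochondria, averaged 12.2 ± 2.58 CPM in TBTCl and 6.40 ± 1.29 CPM in PFOS. MPV17L averaged 98.1 ± 17.4 CPM in TBTCl and 61.6 ± 4.26 CPM in PFOS, and TTC39C averaged 61.1 ± 16.4 CPM in TBTCl and 31.8 ± 5.20 CPM in PFOS. The lysosomal genes ARSB, an arylsulfatase, and RILP, a Rab7 effector, had log2 fold changes of 0.76 and 0.64, and the coatomer subunit COPE had 0.62. PRAP1, TRNP1, RASSF4 and FLYWCH2 completed the 25, between 0.54 and 1.36. Of the 25 genes, 19 were still called without TBTCl replicate 4. The 6 lost were SLC51B, PRAP1, TRNP1, FLYWCH2, RILP and COPE. By exon length, 4 of 179 tested protein-coding genes under 1000 bases were called. At 1000 to 3000 bases 8 of 2797 were called, and at 3000 bases or more 13 of 10438. The 4 short ones were SLC51B (940 bases), APOA2 (945), GAST (470) and PRAP1 (971), of the class raised in TBTCl replicate 4. Whether length accounts for their calls was not tested.

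Long noncoding RNAs accounted for 2 of the calls. SNHG25, a host transcript of a small nucleolar RNA, stood at 4.29, 4.27, 5.47 and 9.75 CPM in TBTCl, against 1.84, 1.81, 1.80 and 1.81 CPM in PFOS. The DMSO libraries stood at 4.36, 3.47, 3.21 and 3.23 CPM, all above PFOS and the first of them within the TBTCl range, and the call held in all 8 fits that left out one library (log2 fold change 1.70 ± 0.25 SE, adjusted p = 0.00322). LNCAROD stood at 1.40, 1.21, 1.28 and 2.61 CPM in TBTCl, against 0.422, 0.400, 0.544 and 0.919 CPM in PFOS. Replicate 4 was the highest library in both groups, and the call was lost without TBTCl replicate 4 (adjusted p = 0.0324, and 0.238 without it).

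The receptors themselves were not apart by the test, and 0 of 22 tested RXR partners and coregulators were called (median -0.10). RXRA stood at 119, 103, 100 and 89.9 CPM in TBTCl, against 125, 117, 94.1 and 112 CPM in PFOS (adjusted p = 0.714). PPARA averaged 50.6 ± 14.6 CPM in TBTCl and 52.3 ± 10.3 CPM in PFOS, and PPARG averaged 25.6 ± 10.4 CPM in TBTCl and 25.4 ± 8.56 CPM in PFOS. NR1H3, which encodes LXR alpha and is its own target, came closest. It stood at 37.8, 31.8, 48.2 and 51.2 CPM in TBTCl, against 30.9, 24.1, 26.9 and 28.4 CPM in PFOS, without overlap (log2 fold change 0.62 ± 0.15 SE, adjusted p = 0.0864, and 0.0673 with the block). Without TBTCl replicate 4 its log2 fold change was 0.51 (edgeR adjusted p = 0.452). NR1H4, which encodes FXR, overlapped between the groups, at 34.3 ± 3.55 CPM in TBTCl and 26.5 ± 7.16 CPM in PFOS (adjusted p = 0.402).

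Among 26 gene lists with 405 tested entries, 6 held a called member and 20 held 0, where 0.249% of all tested genes were called. SREBF1 was counted both among the LXR targets and in fatty acid and triglyceride synthesis. The list for the unfolded protein response and the integrated stress response had 0 calls of 19. Its median was 0.26 (0.16 without TBTCl replicate 4). At an unadjusted p under 0.05, where 8.78% of all tested genes were higher, 7 of the 19 were higher. With the block 3 of them were called: HERPUD1 of the degradation pathway of the endoplasmic reticulum (adjusted p = 0.0130), the co-chaperone DNAJB9 (adjusted p = 0.00345) and the stress cytokine GDF15 (adjusted p = 0.0424). GDF15 stood at 476, 440, 544 and 701 CPM in TBTCl, against 282, 317, 375 and 336 CPM in PFOS. In the fit without the block its edgeR adjusted p was 0.0578, and 0.360 without TBTCl replicate 4. The nuclear genes of ATP synthase had 0 calls of 16. At an unadjusted p under 0.05, where 8.78% of all tested genes were higher, 13 of the 16 were higher. Their median was 0.42, and 0.14 without TBTCl replicate 4, so that most of that shift rested on a single library. The acute phase list had a median of 0.49 (0.31 without replicate 4), with 0 calls of 12.

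The list with the lowest median was cell cycle. All 25 tested members were below 0, with a median of -0.36, and 0 were called. That direction held with each of the 3 other scalings, under which the median ran from -0.46 to -0.33, and without TBTCl replicate 4 (-0.46). The summed level of the list overlapped between the groups, from 1485 to 3266 CPM in TBTCl and from 2367 to 4210 CPM in PFOS, and was lower in TBTCl for each of the 4 replicate numbers. MKI67, a marker of dividing cells, stood at 180, 120, 76.1 and 50.8 CPM in TBTCl, against 237, 148, 122 and 197 CPM in PFOS. It was lower in TBTCl for each replicate number (edgeR log2 fold change -0.72 ± 0.32 SE, adjusted p = 0.334, and 0.155 with the block). Without TBTCl replicate 4 its log2 fold change was -0.50 (adjusted p = 0.948). TOP2A, another member, was not lower for every replicate number. In replicate 4 it had 441 CPM in TBTCl and 432 CPM in PFOS. Against the shared DMSO libraries the median of the list was -0.10 in TBTCl and 0.26 in PFOS. MKI67 had -0.46 in TBTCl and 0.26 in PFOS there, and TOP2A had -0.02 and 0.26. Changes in the number of dividing cells and in transcript per cell, on either side, cannot be told apart in bulk RNA. The imprinted gene network had 0 calls of 14 and a median of -0.10. PLAGL1, the transcription factor at its centre, averaged 1.54 ± 0.335 CPM in TBTCl and 1.78 ± 0.394 CPM in PFOS (adjusted p = 0.739). IGF2 ranged from 1156 to 4822 CPM in TBTCl and from 1840 to 6292 CPM in PFOS (adjusted p = 0.810).

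**Figure D3:**
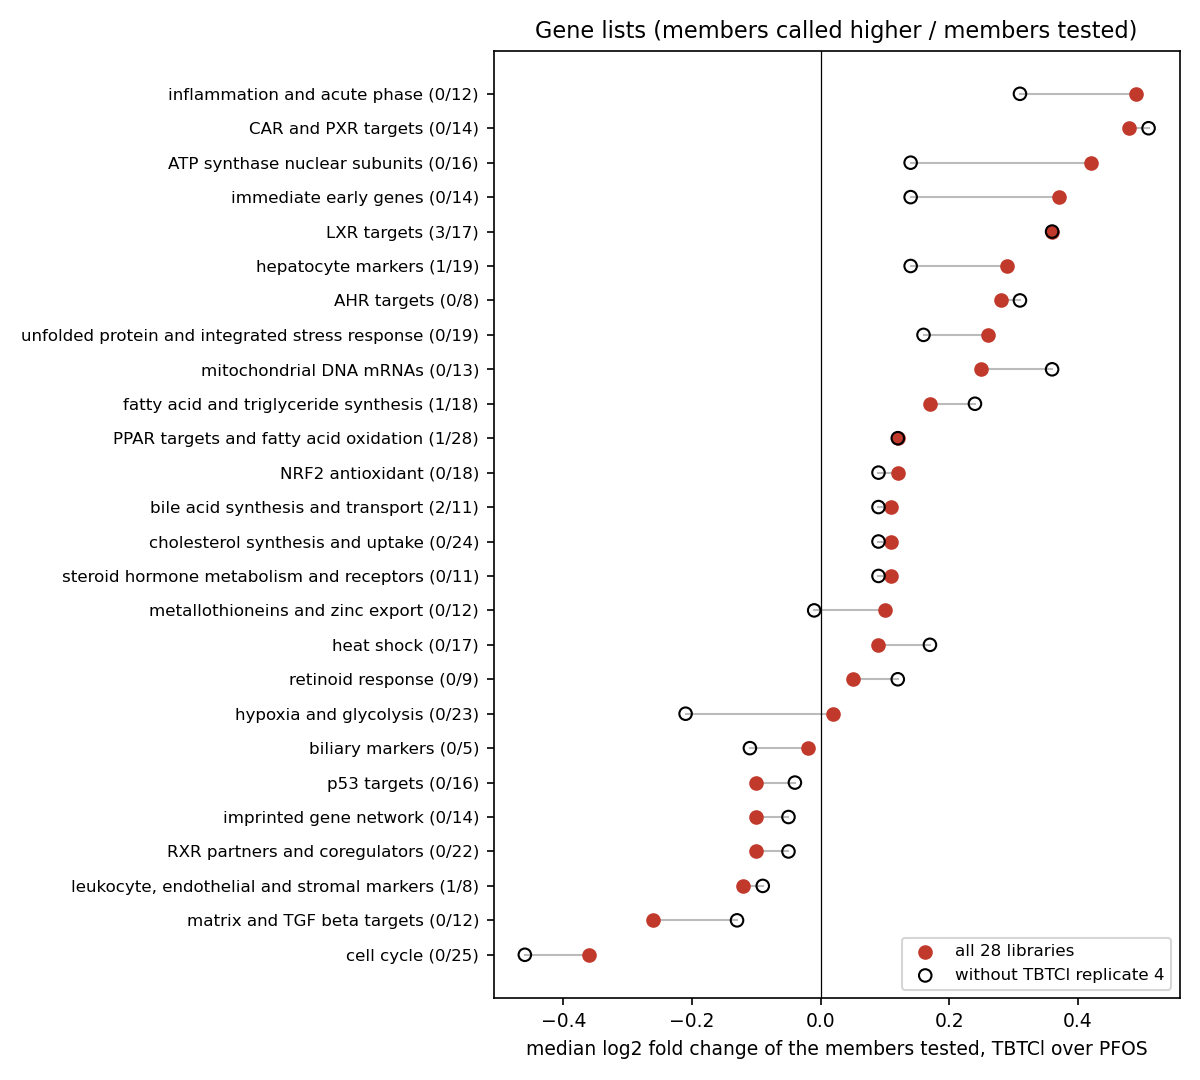
Median log2 fold change of TBTCl over PFOS for the tested members of 26 gene lists, with all libraries in filled red and without TBTCl replicate 4 in open circles, and the members called higher over those tested in brackets. LXR targets stay at 0.36 and cell cycle stays lowest, whereas ATP synthase subunits move to 0.14 from 0.42 when the library is left out.

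Processed pseudogenes, which are copies of spliced messages inserted back into the genome, made up 18 of the 47 calls. Of the 1039 processed pseudogenes tested 1.73% were called, and of the 13414 protein-coding genes 0.186%. They were low, between 0.406 and 15.6 CPM on average in TBTCl. RPL13AP22, a copy of a ribosomal protein gene, stood at 3.11, 4.80, 8.00 and 11.0 CPM in TBTCl, against 1.34, 2.30, 2.99 and 2.02 CPM in PFOS (adjusted p = 0.0111, and 0.0717 without TBTCl replicate 4). RPS3AP5 stood at 2.94, 3.51, 5.95 and 13.1 CPM in TBTCl, against 1.44, 2.38, 2.79 and 1.91 CPM in PFOS (adjusted p = 0.0400, and 0.346 without TBTCl replicate 4). Replicate 4 was the highest TBTCl library for 13 of the 18, and 3 of the 18 were still called without it. Reads of a pseudogene and its parent can be assigned to either, so these values are uncertain.

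The parents did not pass the test. Of 12 pseudogenes with a named parent, 0 parents were called, with log2 fold changes from 0.05 to 0.89 and a smallest adjusted p of 0.187. HSP90B2P, for example, averaged 4.02 CPM in TBTCl and 1.41 CPM in PFOS, while its parent HSP90B1, a chaperone of the endoplasmic reticulum, averaged 1485 ± 490 CPM in TBTCl and 1170 ± 96.5 CPM in PFOS. All 18 pseudogenes had a lower mean in PFOS than in DMSO, as had 43.6% of all tested genes. Of the 18, 0 were called in PFOS against DMSO. Their median log2 fold change against the same DMSO libraries was 0.48 in TBTCl and -0.95 in PFOS. The 18 were chosen for their TBTCl and PFOS values, which enter these comparisons again, so this is a description only. Over all 1039 tested processed pseudogenes the median deviation from DMSO lay between -0.12 and 0.25 in the TBTCl libraries and between -0.29 and -0.19 in the PFOS libraries. Every PFOS library was therefore below every TBTCl and DMSO library in this measure. The share of reads in all processed pseudogenes averaged 0.545% ± 0.0978 in TBTCl and 0.473% ± 0.0358 in PFOS (SD, n = 4 each, two-sided exact permutation p = 0.200, smallest possible 0.0286), and it was higher in TBTCl for each of the 4 replicate numbers, which this test does not use.

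**Figure D4:**
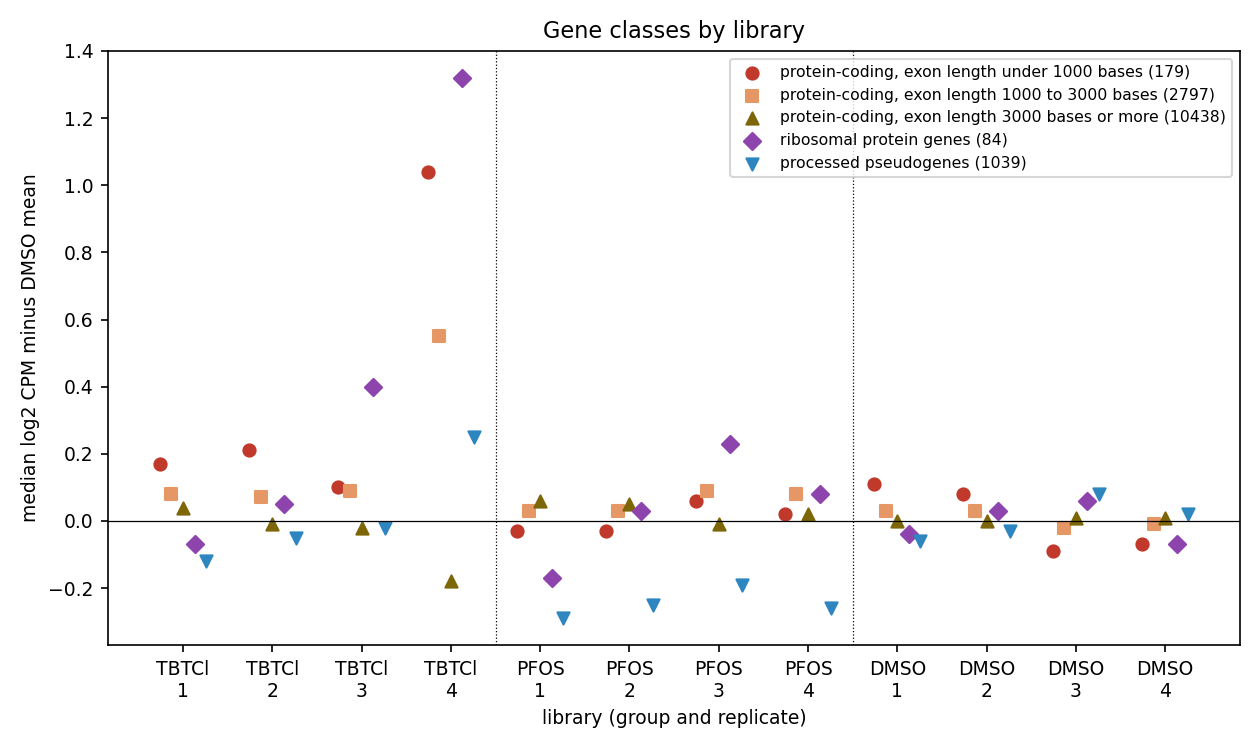
Median log2 CPM minus the DMSO mean for 5 gene classes in each TBTCl, PFOS and DMSO library, with the number of tested genes in brackets. TBTCl replicate 4 is raised for short protein-coding genes (1.04) and ribosomal protein genes (1.32), and the 4 PFOS libraries are the lowest for processed pseudogenes (-0.29 to -0.19).

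The protein-coding calls were also set against the shared vehicle. All 25 had a higher mean in TBTCl than in DMSO, with a median log2 fold change of 0.85, and 12 were called there, where 20 of all tested genes (0.106%) were called higher and 7 (0.0371%) lower. Of all tested genes 51.2% had a higher mean in TBTCl than in DMSO, and 43.6% had a lower mean in PFOS than in DMSO. The same 25 genes had a median of -0.16 in PFOS against DMSO, 19 had a lower mean in PFOS, and 0 were called, where 3 genes (0.0159%) were called in all. The 25 genes were chosen for their TBTCl and PFOS values, which enter these comparisons again, so the counts are a description only, and both comparisons share the 4 DMSO libraries. SREBF1 had 0.91 in TBTCl (adjusted p = 0.00194) and 0.19 in PFOS (adjusted p = 1.00). PPIB had 0.42 in TBTCl (adjusted p = 0.182) and -0.44 in PFOS (adjusted p = 0.298), and neither side passed the test.

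No gene was lower in TBTCl by the test without the block, which found 874 at an unadjusted p under 0.05. With the block 8 genes were lower. MRE11, a nuclease of DNA double-strand break repair, stood at 22.0, 23.0, 22.4 and 21.7 CPM in TBTCl, against 32.3, 27.7, 29.2 and 33.1 CPM in PFOS, without overlap (log2 fold change -0.46 ± 0.12 SE, adjusted p = 0.0947, and 0.0243 with the block). KDM4D, a histone demethylase, averaged 1.62 ± 0.288 CPM in TBTCl and 3.07 ± 0.465 CPM in PFOS (adjusted p = 0.125, and 0.0110 with the block). MYH7, a myosin heavy chain, averaged 0.181 ± 0.0662 CPM in TBTCl and 0.597 ± 0.203 CPM in PFOS, from 3 to 10 reads in the TBTCl libraries (adjusted p = 0.0708, and 0.0387 with the block). ITPRIPL1, SLC24A1, LINC00491, HNRNPA1P10 and 1 gene without a symbol completed this set.

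**Figure D5:**
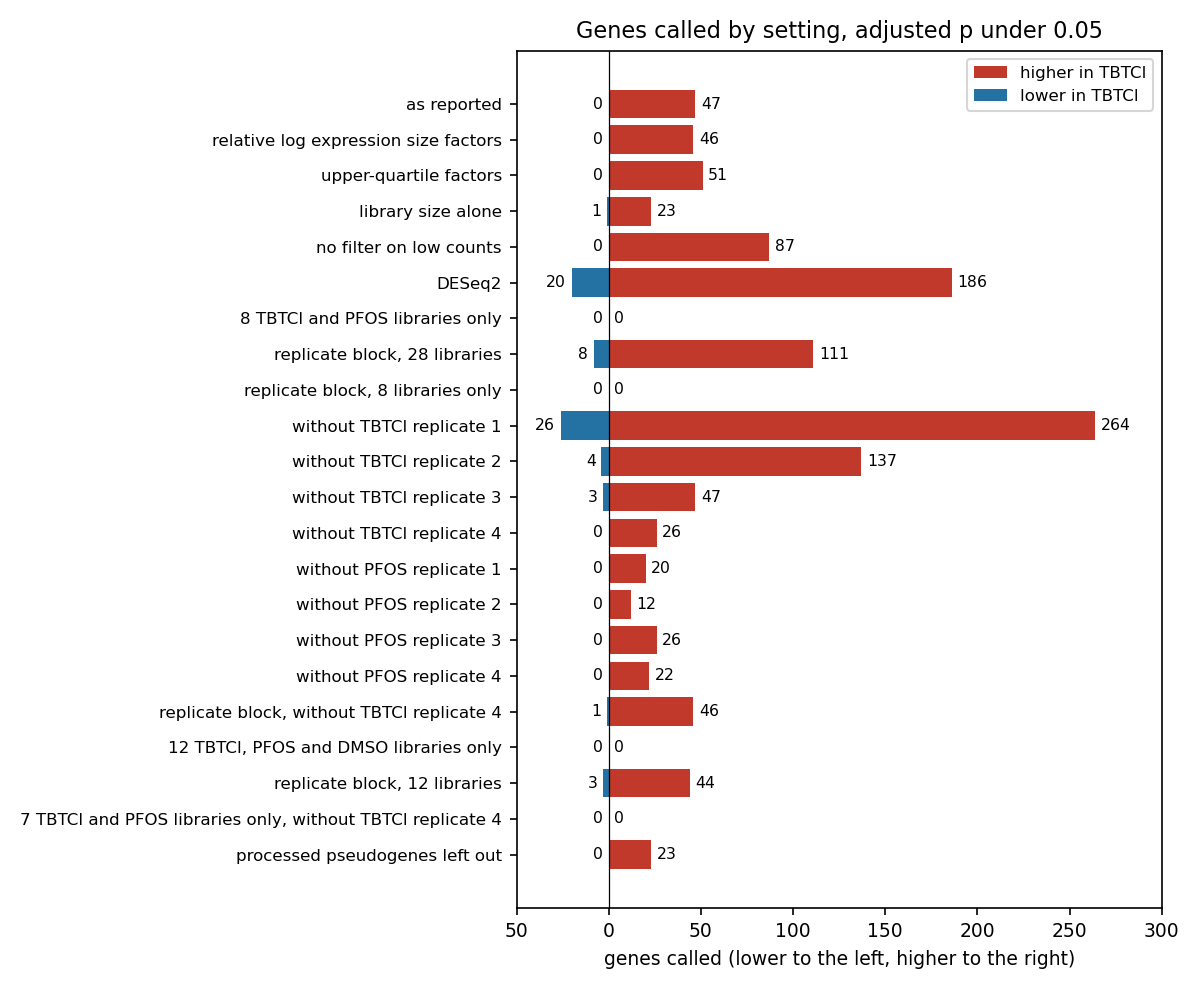
Number of genes called at an adjusted p under 0.05 under each setting, with genes higher in TBTCl to the right and lower in TBTCl to the left. Calls higher in TBTCl run from 0 in 4 fits that use 7 to 12 libraries to 264 without TBTCl replicate 1, and calls lower in TBTCl stay at or below 26.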

How the data were processed

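Integer read counts per gene were deposited by the authors, one column per library; fastp, STAR, HTSeq and DESeq2 on GRCh38 are named in the submitters' processing notes. Neither the annotation used for counting nor its handling of strand is stated in the labels, so reads of a gene and an overlapping antisense gene cannot be told apart. Of 63140 identifiers, the last was left out because the file ends there without a line break. Gene types and lengths came from GENCODE release 29, which may not be the one used for counting.

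All 28 libraries were fitted together with edgeR 4.0.16 in R 4.3.3 (quasi-likelihood F test, TMM scaling, filterByExpr with a minimum count of 10, group means, 21 residual degrees of freedom). Calls needed an adjusted p (Benjamini-Hochberg) under 0.05. CPM are counts scaled to library size with TMM, given as mean ± SD of 4 libraries. The SE is the log2 fold change divided by the square root of F. The floor of 3 counts equals 0.0604 to 0.104 CPM in the 8 libraries, for counting error only. Shares of reads were compared with a two-sided exact permutation test (scipy 1.17.1).

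Equal replicate numbers were taken to pair the libraries because deviations from the group means correlated by 0.248 to 0.521 for the 4 equal numbers (-0.514 to 0.291 for unequal ones, with TBTCl 3 and PFOS 2 above the equal pair 2); this comes from the data, not the labels. On simulated data with these means the edgeR fit to 18849 genes recovered 54% of 2-fold and 85% of 4-fold changes, with 5.44% false calls. DESeq2 1.42.0 gave 14.6% false calls. The simulated counts had no effect of replicate number and no library that stood apart like TBTCl replicate 4. These rates may therefore not hold for the real libraries.

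Genes named by rule were called genes without overlap that reached a mean of 5 CPM in either exposure, the 8 with the largest fold each way, the 2 of smallest p per list, and CYP1A1, MT2A, CPT1A, ABCA1, SREBF1, RXRA, PPARA, PPARG, NR1H3, PLAGL1, H19 and IGF2 (H19 was too low to test). Other named genes were chosen after their values were seen. The members, lists and tests were chosen with earlier results of these data known. Alternatives were other scalings, no filter, DESeq2, the replicate block, fewer libraries and each library left out.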

Additional observations from a re-analysis of the deposited data

Results flagged for a closer look

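In 3 of 52 groups of 4 values a single library lay far from the other 3 by Dixon's criterion, where chance alone gives about 1 in 20. APOA2 stood at 8485 CPM in TBTCl replicate 4, against 3355 to 3806 CPM in the other TBTCl libraries. The metallothionein gene MT2A stood at 143 CPM in TBTCl replicate 4, against 20.0 to 35.5 CPM in the others, and its log2 fold change over PFOS was 0.98 (edgeR adjusted p = 0.376), and -0.02 without that library. PPARA stood at 67.7 CPM in PFOS replicate 2, against 46.0 to 48.4 CPM in the others. Both TBTCl values belong to the library with raised levels of short transcripts.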

How the results depend on the processing

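The 47 calls, all higher in TBTCl, became 24 (23 higher, 1 lower) with library size alone, 87 (87 and 0) without the filter, 206 (186 and 20) with DESeq2, 119 (111 and 8) with the replicate block and 23 (23 and 0) without processed pseudogenes, an alternative chosen after seeing the data. They became 0 in the fits to 8 libraries, to 8 libraries with the block, to TBTCl, PFOS and DMSO alone (smallest adjusted p 0.0616) and to 7 libraries without TBTCl replicate 4; the last 2 were chosen after seeing the data. The block on 12 libraries, also chosen after seeing the data, gave 47 calls (44 and 3), with 19 of the 47 among them, and the block without TBTCl replicate 4 gave 47 (46 and 1). Leaving out one library gave 12 to 290 calls, 12 to 264 higher and 0 to 26 lower: 290 without TBTCl replicate 1, 141 without replicate 2, 26 without replicate 4, and 20, 12, 26 and 22 without PFOS replicates 1, 2, 3 and 4; the cause was not tested. Relative log expression and upper-quartile factors gave 46 and 51. No called gene changed direction under any of these settings, and 10 were called in all 8 fits that left out one library. Library size alone set the median of all genes at -0.09, against 0.01.

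Among uncalled genes, the log2 fold change of PPARG was 0.02 and became -0.10 with library size alone, -0.03 without the filter, -0.13 with the block without TBTCl replicate 4 and -0.11 in 7 libraries. Those of ABCA1 and PPARA were -0.13 and -0.05, and became 0.12 and 0.13 with the block without TBTCl replicate 4 and 0.17 and 0.14 in 7 libraries, while MT2A became -0.02 there. With one library left out, CYP1A1 ran from -0.41 to 0.92, MT2A from -0.02 to 1.26, ABCA1 from -0.32 to 0.16, PPARA from -0.15 to 0.14, PPARG from -0.21 to 0.20 and IGF2 from -0.71 to 0.02. The difference in share of reads ran from -0.00600 to 0.0217 percentage points for antisense genes and from -0.0421 to 1.34 for mitochondrial genes when one replicate number was left out.

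Depth limits low genes: the PFOS mean of ABCG1 rests on 3 to 10 reads per library. In simulated data, which lacked replicate effects and a library that stood apart, 54% of 2-fold changes were called. The share in the real data is not known, and an uncalled gene is not shown to be equal.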

Other observations

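Further genes that did not pass the main test had every TBTCl library above every PFOS library or passed with the replicate block. CYP3A7, a fetal drug-metabolising enzyme of the CAR and PXR list, stood at 1.89, 3.17, 1.44 and 1.53 CPM in TBTCl, against 0.883, 0.927, 0.680 and 0.255 CPM in PFOS (edgeR log2 fold change 1.54 ± 0.51 SE, adjusted p = 0.207, and 0.0248 with the block). Its relative CYP3A4 was near the floor, at 0.276 ± 0.0976 CPM in TBTCl and 0.179 ± 0.122 CPM in PFOS, and reads of these similar genes may be shared. That list of 14 tested genes had 0 calls and a median of 0.48, which was 0.51 without TBTCl replicate 4.

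ACSL3, which activates fatty acids for lipid droplets, stood at 648, 590, 876 and 1100 CPM in TBTCl, against 362, 360, 428 and 596 CPM in PFOS, with a similar step for each replicate number (adjusted p = 0.146, 8.69e-04 with the block and 0.689 without TBTCl replicate 4). FKBP11, a folding enzyme of the secretory pathway, averaged 19.6 ± 1.98 CPM in TBTCl and 11.9 ± 2.30 CPM in PFOS (adjusted p = 0.0578, 0.0200 with the block and 0.269 without TBTCl replicate 4). FGG, the gamma chain of fibrinogen, stood at 2181, 2088, 2557 and 2844 CPM in TBTCl, against 1411, 1319, 1434 and 1255 CPM in PFOS, without overlap (adjusted p = 0.105, and 0.0614 with the block).

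The test found no difference in shares of reads at this number of libraries. Mitochondrial DNA genes took 6.30% ± 1.53 of reads in TBTCl and 5.46% ± 1.30 in PFOS (SD, n = 4 each, two-sided exact permutation p = 0.457). The 20 most counted genes took 14.5% ± 1.78 in TBTCl and 13.6% ± 1.35 in PFOS (exact permutation p = 0.429), higher in TBTCl for each of the 4 replicate numbers, which the test does not use. Antisense genes took 0.354% ± 0.0392 in TBTCl and 0.345% ± 0.0281 in PFOS (exact permutation p = 0.714), and ribosomal protein genes took 7.71% ± 2.86 in TBTCl and 6.25% ± 0.670 in PFOS (exact permutation p = 0.429). After adjustment over these shares and that of processed pseudogenes, 5 in all, the smallest p was 0.571.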
